A study of Mus musculus with 9 samples.

Results

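The arms of miR-199 and miR-214 are the mature products of miR-199a, miR-199b and miR-214, and they were picked by name from the miRNA-Seq count tables of tibialis anterior (TA) muscle. Of the 1915 mature miRNAs in the tables, 6 belong to them, namely mmu-miR-199a-3p, mmu-miR-199b-3p, mmu-miR-199a-5p, mmu-miR-199b-5p, mmu-miR-214-3p and mmu-miR-214-5p, written below without the mouse prefix. The counts of miR-199a-3p and miR-199b-3p were identical in each of the 9 libraries, so they were taken once, which left 5 distinct members. All 5 were among the 304 miRNAs called expressed here, which had over 32 counts in 1 library or more.

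The control group held 4 mice injected with PBS and the LLC group 5 mice with Lewis Lung Carcinoma tumors, raised from 750000 cells of this mouse lung carcinoma line in each flank and left for 22 days. The sample labels give C57BL/6J mice aged 10 weeks, and the series text gives healthy C57BL/10 males aged 8 weeks, so the strain and age are uncertain. The labels name no transgene or deletion, and the tumor model rests on 1 cell line. RNA came from whole muscle, with no sorting of cells, and the libraries are called C1 to C4 and L1, L2, L3, L5 and L6 after the labels. L4 was not analysed here.

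MicroRNAs are cut from a hairpin precursor, which yields a 5p arm and a 3p arm. An arm loaded into Argonaute pairs with messenger RNAs mainly through its seed, and it lowers their stability or translation. Mir199a-2 and Mir214 are carried by the long noncoding transcript Dnm3os, which is active in mesenchymal cells, and miR-199 and miR-214 are known as products of fibroblasts and other stromal cells, with links to fibrosis of several organs. In skeletal muscle, miR-214 is known to act on the Polycomb methyltransferase Ezh2 during myoblast differentiation.

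The genes lie on 3 chromosomes, each antisense to a dynamin gene. On chromosome 1 of GRCm38, Mir199a-2 (162217814 to 162217923, plus strand) and Mir214 (162223368 to 162223477, plus strand) are separated by 5444 bp. Both are inside exons of Dnm3os (162217623 to 162225550) and inside an intron of Dnm3, which is on the opposite strand. Mir199b is on chromosome 2 (32318460 to 32318569, plus strand) within an intron of Dnm1, read from the opposite strand. Mir199a-1 is on chromosome 9 (21496495 to 21496564, minus strand) within an intron of Dnm2, again on the opposite strand. The 2 miR-199a genes give the same mature arms, so counts of miR-199a-5p join chromosomes 1 and 9, and counts of miR-199a-3p join all 3 miR-199 genes. Only the miR-214 arms and miR-199b-5p belong to a single gene.

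The mature sequences show which counts can be told apart, and 5 of the 6 names matched RefSeq's table on GRCm38.p6. miR-199b-5p had no entry there, so its seed was not compared. Whether its counts can be told apart from those of miR-199a-5p is thus not shown. The matched sequences are written 5′ to 3′, with the seed (bases 2 to 8) in capitals.
miR-199a-3p: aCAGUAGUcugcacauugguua
miR-199b-3p: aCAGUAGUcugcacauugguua
miR-199a-5p: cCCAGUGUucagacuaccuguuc
miR-214-3p: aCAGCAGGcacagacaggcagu
miR-214-5p: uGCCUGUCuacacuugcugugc
The first 2 sequences are the same over all 22 bases, which is the reason why a read kept at each of its best matches was counted under both names. The 3p arms of miR-199 and miR-214 share their first 4 bases and 8 of 22 positions, but not the seed. The 4 distinct seeds shown differ from each other. Among the 1679 mature names in the RefSeq table, only miR-761 from outside the members shared a seed with a matched member, that of miR-214-3p. It had 0 counts in the 9 libraries together.

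The counts were whole reads per mature miRNA as deposited, with totals of 4992339 to 7833161 per library. Normalised read counts (CPM, relative to the library size after scaling with edgeR's TMM factors) are given below. The TMM factors were lowest in L5 (0.762) and L1 (0.876) and between 0.953 and 1.15 in the other 7 libraries. A count of 3 in a library corresponded to 0.383 to 0.601 CPM before TMM, and the lowest count of any member was 44. Intervals and floors cover counting error or the spread between these mice only. The muscle label was checked against miRNA lists, chosen with earlier results of these data known. The muscle fibre miRNA miR-133a-3p had 89338 to 186111 counts, miR-1a-3p had only 62 to 171 counts, and miR-206-3p had at most 3 counts. These muscle fibre miRNAs thus differed widely in level. Why miR-1a-3p was so low was not tested, and the abundance ranks below rest on the counts as deposited. None of 6 epithelial miRNAs reached the expression threshold, with at most 23 counts for any of them. No list of fibroblast miRNAs was tested, so the link of these arms to that cell type is background here.

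The arms of miR-199 and miR-214 spanned a wide range of abundance in the TA muscle, and the 3p product of miR-199 held most of it. With identical rows counted once, their mean CPM ranked 28 (miR-199a-3p), 83 (miR-199a-5p), 143 (miR-199b-5p), 163 (miR-214-3p) and 218 (miR-214-5p) among 301 distinct expressed miRNAs. This order held in each of the 9 libraries, although the pair miR-199b-5p and miR-214-3p overlapped in CPM between libraries and differed by only 120 against 117 counts in L1. miR-199a-3p made up 86.3 ± 1.66% (SD, n = 4) of the counts of the 5 members in control mice and 89.0 ± 2.67% (SD, n = 5) in LLC mice. The summed CPM of the 5 members was 2193 ± 210 in control mice and 2240 ± 629 in LLC mice, where L5 alone had 3344 and the other 4 mice had 1801 to 2142. Without L5, the LLC mean was 0.896 times the control mean, against 1.02 times with it.

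Comparing the LLC with the control group, the mean of each of the 4 less abundant arms was lower in the tumor-bearing mice, at 0.701 to 0.834 times the control level, while miR-199a-3p was at 1.06 times. None of the 5 passed the threshold, a 1.5-fold difference with an adjusted p no higher than 0.05, and neither did any of the 304 expressed miRNAs (0%, quasi-likelihood F test of edgeR, adjusted after Benjamini-Hochberg). At an unadjusted p of at most 0.05, 3 of the 5 members were lower and 0 higher, against 11.2% of all expressed miRNAs lower and 16.4% in either direction. With a 1.5-fold minimum added to this p, the count was 0 of the 5 members and 7.24% of all expressed miRNAs. The log2-fold change was below 0 for 4 of the 5 members and for 53.6% of all expressed miRNAs, with medians of -0.33 and -0.02. These arms share precursors and libraries, so they are not independent of each other. In RNA from whole muscle, fewer cells of a type and less of a miRNA per cell cannot be told apart.

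**Figure D1:**
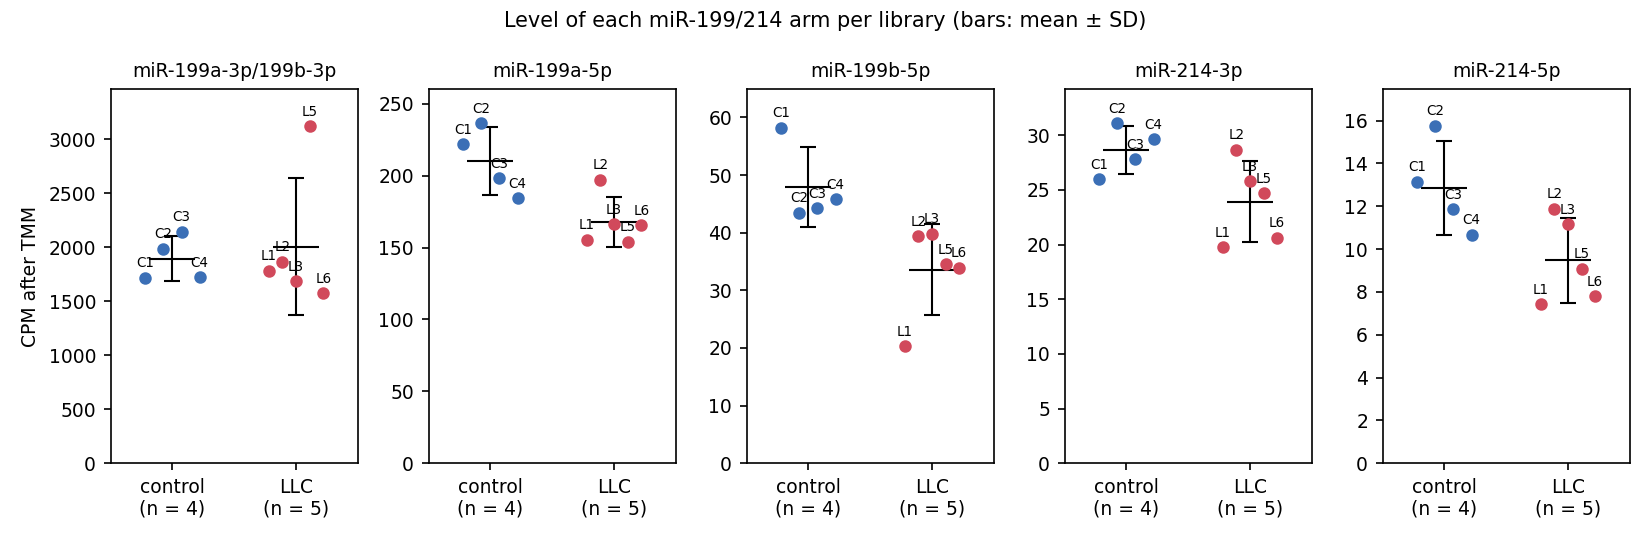
CPM after TMM of each of the 5 distinct arms of miR-199 and miR-214 (y axes, each from 0) in the 4 control (blue) and 5 LLC (red) libraries; bars are mean ± SD. For miR-199b-5p each LLC point is under each control point, and for miR-199a-3p L5 stands alone at 3122 CPM.

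miR-199a-3p, an arm known to act on mTOR and Met, had 1719 CPM in C1, 1986 in C2, 2144 in C3 and 1725 in C4. Its CPM was 1781 in L1, 1865 in L2, 1686 in L3, 3122 in L5 and 1573 in L6. The groups overlapped, with L3 and L6 below the control mice, L5 far above them, and L1 and L2 among them. The means were 1894 ± 209 (SD, n = 4) and 2005 ± 633 (SD, n = 5), with a log2-fold change of 0.08 (95% interval -0.29 to 0.46, adjusted p = 0.789 in edgeR). The sign of this difference was not stable, as it was also negative with library totals in place of TMM (-0.11). When L5 was left out, it was -0.13 on the log2 scale (adjusted p = 0.616 in edgeR), the LLC mean was 1726 ± 126 CPM (SD, n = 4), and the coefficient of variation of the LLC group went from 31.6 to 7.27%. By the raw counts, L5 also had the most reads of this arm, 15814, against 8729 to 14996 in the other 8 libraries.

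miR-199a-5p comes from the other arm of the same hairpins and is known to act on caveolin-1 in fibroblasts. It had 222 CPM in C1, 237 in C2, 198 in C3 and 184 in C4, from 933 to 1787 counts. The LLC mice had 156 CPM in L1, 197 in L2, 166 in L3, 154 in L5 and 165 in L6, from 780 to 1443 counts. L2 was thus within the control range, and the other 4 LLC mice were below it. The means were 210 ± 23.4 (SD, n = 4) and 168 ± 17.4 (SD, n = 5), a log2-fold change of -0.33 (standard error 0.119, 95% interval -0.58 to -0.07, unadjusted p = 0.0148 and adjusted p = 0.214 in edgeR). The two-sided exact permutation test over the 126 splits of the mice gave p = 0.0238, and p = 0.329 when adjusted over the 304 miRNAs. An exact p of at most 0.05 was found for 2 of the 5 members, both lower in LLC mice, and for 12.5% of the expressed miRNAs (7.89% lower), and for 0% after adjustment. The smallest p this test can give is 0.00794, so an adjusted p of 0.05 needs many miRNAs at that floor. The adjusted exact p-values thus say little about a single miRNA.

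miR-199b-5p, an arm of the Dnm1 locus, is known to act on the kinase Dyrk1a in heart muscle. Its CPM was 58.2 in C1, 43.4 in C2, 44.3 in C3 and 45.8 in C4, while in the LLC group it was 20.3 in L1, 39.4 in L2, 39.9 in L3, 34.5 in L5 and 33.9 in L6. The groups did not overlap, as the highest LLC mouse was below the lowest control mouse, which was the case for 1 of the 5 members and for 4.28% of all expressed miRNAs in this direction (5.92% in either). The means were 47.9 ± 6.93 (SD, n = 4) and 33.6 ± 7.93 (SD, n = 5), with a log2-fold change of -0.51 (standard error 0.181, 95% interval -0.90 to -0.13, unadjusted p = 0.0126 and adjusted p = 0.214 in edgeR). The two-sided exact permutation test gave p = 0.0238, or p = 0.329 adjusted over the 304 miRNAs. Before TMM scaling, 4 of the 5 LLC mice were below the control mice, and L3 with 42.8 CPM was just above C3 with 42.2 CPM. L1 and C1 were at the ends of their groups, and the log2-fold change was -0.38 without L1 and -0.40 without C1. That of miR-214-5p was -0.38 and -0.44 in the same settings, so no order between these arms is drawn.

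Both arms of miR-214 were scarce. miR-214-3p, which shares the Dnm3os transcript with Mir199a-2, had 26.0 CPM in C1, 31.1 in C2, 27.8 in C3 and 29.6 in C4. In the LLC group it had 19.8 CPM in L1, 28.7 in L2, 25.8 in L3, 24.7 in L5 and 20.6 in L6, so that 4 of the 5 LLC mice were below the control mice and L2 was among them. The log2-fold change was -0.26 (95% interval -0.58 to 0.06, adjusted p = 0.335 in edgeR), with means of 28.6 ± 2.22 (SD, n = 4) and 23.9 ± 3.70 (SD, n = 5), and the two-sided exact permutation test gave p = 0.0714. For miR-214-5p, the less abundant arm of the hairpin, CPM was 13.1 in C1, 15.8 in C2, 11.9 in C3 and 10.7 in C4. In the LLC group it was 7.43 in L1, 11.9 in L2, 11.2 in L3, 9.08 in L5 and 7.80 in L6, with 3 of the 5 mice below the control range. The log2-fold change was -0.45 (95% interval -0.87 to -0.03, unadjusted p = 0.0372 and adjusted p = 0.284 in edgeR), and the two-sided exact permutation test gave p = 0.0714. The counts behind it were 44 to 119 per library.

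**Figure D2:**
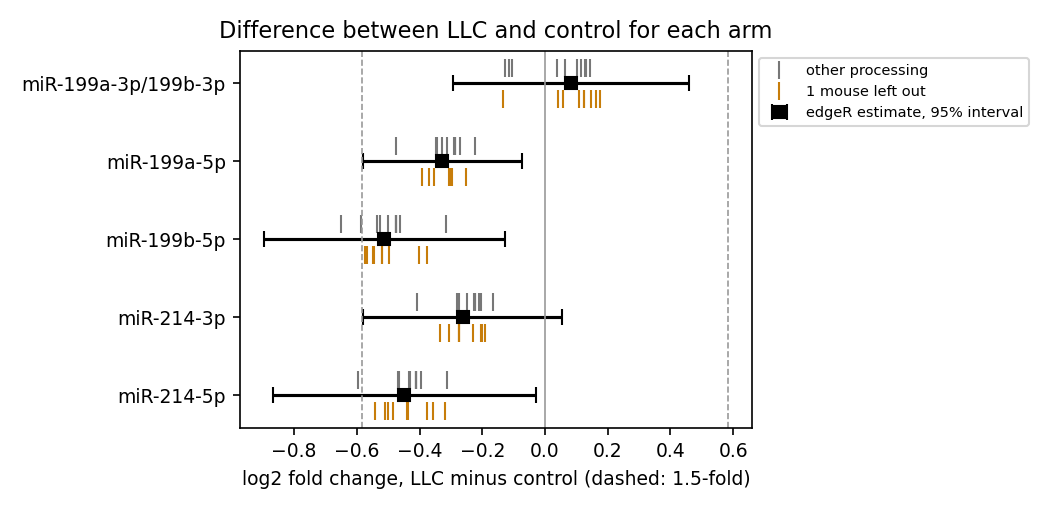
Log2-fold change (x axis, LLC minus control) of each arm: squares and bars are the edgeR estimate with its 95% interval. Grey ticks are other processing choices and the fit without both L1 and L5, and orange ticks are 1 mouse left out. The 4 lower arms kept their sign in each tick, and miR-199a-3p changed sign with L5 left out, with library totals, with the replicate block and without both L1 and L5.

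Taking L1 and L5 out together, which are the libraries with the lowest TMM factors and were chosen after their values were seen, brought the difference of each of the 4 lower arms closer to 0 and turned the sign of miR-199a-3p. The log2-fold changes were then -0.12 for miR-199a-3p, -0.22 for miR-199a-5p, -0.32 for miR-199b-5p, -0.17 for miR-214-3p and -0.31 for miR-214-5p, with adjusted p-values of 0.626 to 0.862 in edgeR. The differences of miR-199b-5p and miR-214-3p were thus over 1.5 times smaller without them. Among all expressed miRNAs, 1 was called in this setting.

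**Figure D3:**
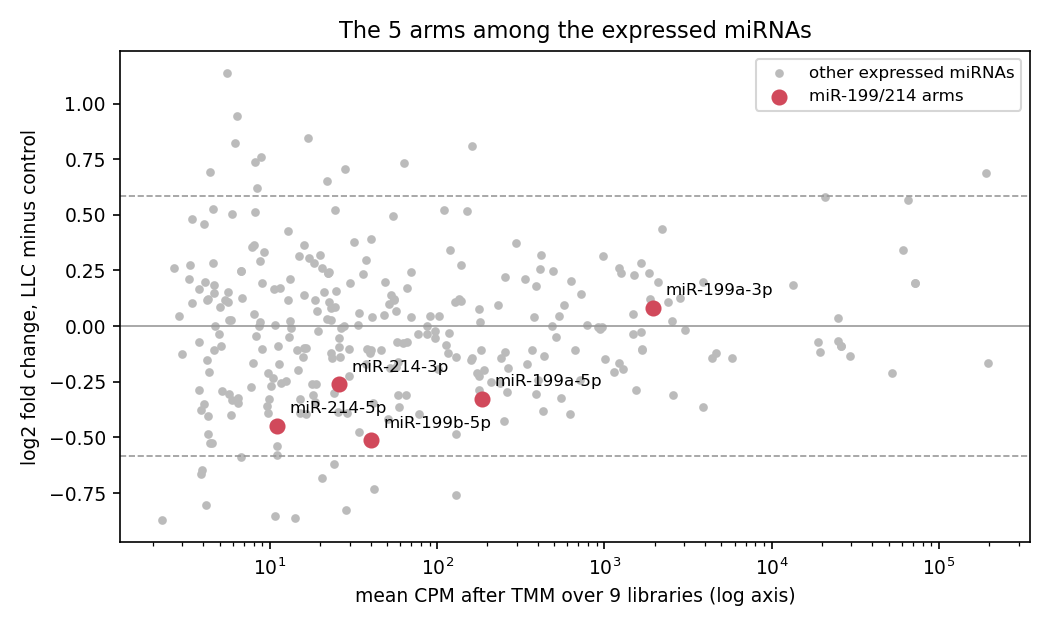
Mean CPM over the 9 libraries (x axis, log scale) and log2-fold change (y axis, LLC minus control) of the expressed miRNAs, with the 5 arms of miR-199 and miR-214 in red and dashed lines at 1.5-fold. miR-199a-3p is at 1956 CPM, far to the right of the other arms, and all 5 lie between the dashed lines.

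The balance of the 2 arms within a library does not depend on the scaling. For miR-199, the 3p counts were divided by the sum of miR-199a-5p and miR-199b-5p, since the 3p arm joins all genes. This gave 6.14 in C1, 7.09 in C2, 8.84 in C3 and 7.49 in C4 (mean 7.39 ± 1.12, SD, n = 4). In the LLC group it was 10.1 in L1, 7.88 in L2, 8.18 in L3, 16.6 in L5 and 7.89 in L6 (mean 10.1 ± 3.72, SD, n = 5). Only L1 and L5 were above the control mice. On the log2 scale the ratio was higher by 0.40 in LLC mice (exact permutation, two-sided, p = 0.135, or p = 0.347 adjusted over the 72 arm pairs expressed), by 0.21 without L5 and by 0.12 without L1 and L5. Of the 72 arm pairs, 8.33% had an exact p of at most 0.05, 0% after adjustment, and 55.6% had a higher 3p share in LLC mice. The smallest possible p limits the adjusted values here too. The groups did not overlap for 1.39% of the pairs, all higher in LLC mice, and for neither family described here.

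For miR-214, the 3p counts per 5p count were 1.98 in C1, 1.97 in C2, 2.34 in C3 and 2.78 in C4. They were 2.66 in L1, 2.41 in L2, 2.31 in L3, 2.72 in L5 and 2.65 in L6, and all LLC values were within the control range. The log2 ratio differed by 0.18 between the groups (two-sided exact permutation test, p = 0.198, or p = 0.421 adjusted over the 72 pairs). The 3p arm was thus the more abundant product of both families in each library, by a wider margin for miR-199 than for miR-214.

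**Figure D4:**
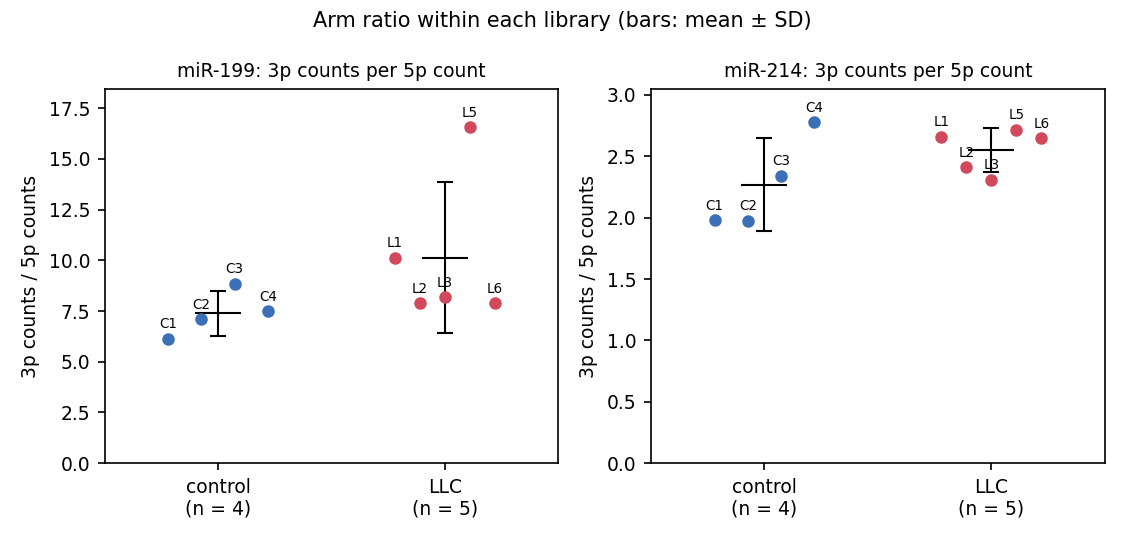
Counts of the 3p arm per count of the 5p arm in each library (y axes, from 0), for miR-199 (left, both 5p arms summed) and miR-214 (right); bars are mean ± SD of 4 control and 5 LLC mice. L5 at 16.6 and L1 at 10.1 exceed the control mice for miR-199, and no LLC mouse leaves the control range for miR-214.

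The share of the Dnm1 locus among the miR-199-5p counts was 15.5 to 20.8% in control mice and 11.5 to 19.3% in LLC mice, with L1 alone below the control mice. Mir214 shares Dnm3os with Mir199a-2, but the counts of miR-199a-5p also include Mir199a-1 in Dnm2. The counts of miR-214-3p relative to miR-199a-5p were 13.7 ± 1.82% (SD, n = 4) and 14.2 ± 1.61% (SD, n = 5). Each LLC mouse was within the control range of 11.7 to 16.1%. Neither ratio was tested, nor was how cleanly the alignment separated reads of miR-199a-5p and miR-199b-5p.

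Across the 9 libraries, the 4 less abundant arms varied together, while the pairs with miR-199a-3p depended on L5. Pearson's r of log2 CPM was 0.72 to 0.90 for the 6 pairs among the 4 arms and -0.18 to 0.15 for the 4 pairs with miR-199a-3p, where the median over all pairs of distinct expressed miRNAs was 0.00 and the upper quartile 0.38. Some miRNAs of other loci varied as closely with the 4 arms, as given below. The arms of miR-199 and miR-214 share libraries, scaling factors and, in part, precursors. The closest pair was miR-199a-5p and miR-214-5p, with r = 0.90 (exact permutation p = 0.000843) and Spearman's rho of 0.92 (exact permutation p = 0.00131), and p = 0.00843 and p = 0.0131 when adjusted over the 10 pairs computed. Leaving out C1 and C2, the mice farthest from the median of miR-199a-5p, gave r = 0.80 over 7 mice. The exact p-values of all pairs permute the 9 libraries without regard to group, so they also take in the difference between the groups. With the group means removed, r was 0.81 for this pair and 0.41 to 0.81 over the 6 pairs, and no p was computed for these values.

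The 2 arms of the Mir214 hairpin had r = 0.88 (exact permutation p = 0.00195) and rho = 0.78 (exact permutation p = 0.0172), with adjusted p = 0.00977 and p = 0.0574 over the 10 pairs. Without L1 and L6, r was 0.64, and with the group means removed it was 0.79 over all 9 libraries. The 2 arms of miR-199a, by contrast, had r = -0.18 (exact permutation p = 0.683, adjusted p = 0.873) and rho = 0.07 (exact permutation p = 0.880, adjusted p = 0.978). This pair rested on a single mouse, as r was 0.53 without L5 and 0.63 without L5 and C3. The pairs of miR-199a-3p with the miR-214 arms depended on L5 too, with r = 0.15 for miR-214-3p and 0.01 for miR-214-5p over 9 libraries, and 0.54 for both without L5. With miR-199b-5p, r was -0.06, and 0.15 without L5. In L5 the 3p arm was the highest and miR-199a-5p the lowest of all 9 libraries.

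**Figure D5:**
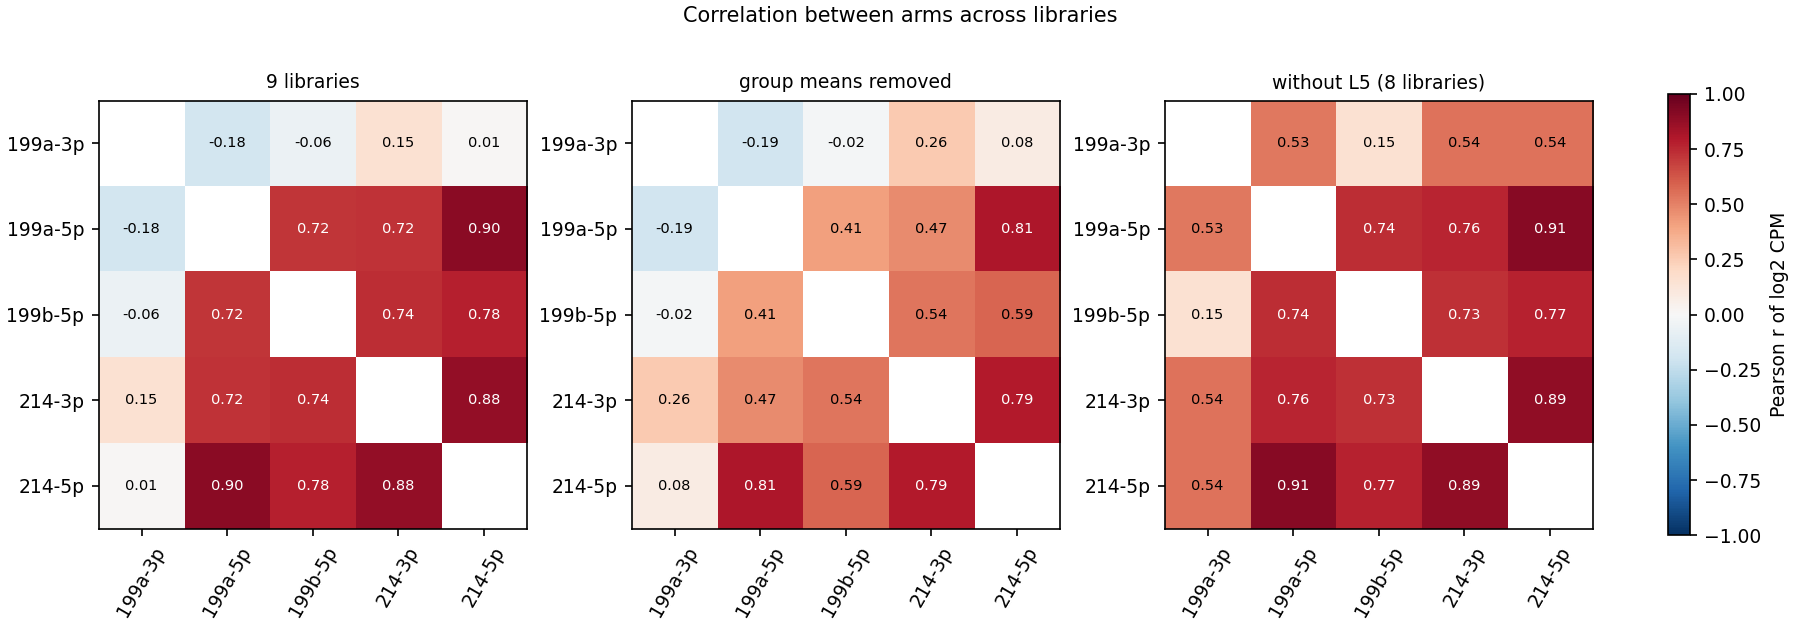
Pearson's r of log2 CPM between the 5 arms over the 9 libraries (left), with each group's mean removed (middle) and over the 8 libraries without L5 (right). The pairs among the 4 less abundant arms are at 0.72 to 0.90 on the left, and the pairs with miR-199a-3p are at most 0.15 on the left and at most 0.54 on the right.

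The other expressed miRNAs whose profiles over the 9 libraries were most like those of the members, by the mean r with the 5 arms, were miR-376c-3p of the imprinted Dlk1-Dio3 cluster (0.67), miR-30b-5p of the miR-30 family (0.65), miR-744-3p (0.64), miR-125b-5p of the lin-4 family (0.63) and miR-26b-5p (0.62). They were picked for a high r, so no test applies. Each had a low or negative r with miR-199a-3p, from -0.16 to 0.02. With the 4 less abundant arms, r was 0.76 to 0.93 for miR-376c-3p and 0.81 to 0.91 for miR-30b-5p. The 6 pairs among those arms had r of 0.72 to 0.90, so the shared variation was not particular to them. The log2-fold changes of these 5 similar miRNAs were all negative, from -0.58 for miR-376c-3p to -0.11 for miR-26b-5p, with adjusted p-values of 0.214 to 0.575 in edgeR. Only 2 of the 5 stayed among the first 5 when L1 was left out, so the choice rests partly on that mouse. With the group means removed, 3 of the 5 stayed.

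Lists of miRNAs of other cell types, chosen with earlier results of these data known, were read from the same fit. In that fit, 16.4% of all expressed miRNAs had an unadjusted p of at most 0.05 and 11.2% were lower at that level. All 3 erythroid miRNAs (miR-451a, miR-144-3p and miR-144-5p) were lower at an unadjusted p of at most 0.05, with a median log2-fold change of -0.76. The arms of miR-144 share a hairpin, so the 3 are not independent of each other. For miR-144-3p the groups overlapped and the exact permutation test gave p = 0.0794. The summed CPM of the 3 was 215 to 325 in control mice and 92.4 to 220 in LLC mice. Of the 2 endothelial arms of miR-126a, miR-126a-3p was lower at an unadjusted p of at most 0.05 in edgeR, by a log2-fold change of -0.31. The sum of the 2 arms was 26211 to 33929 and 24162 to 29972 CPM. Of 5 leukocyte miRNAs, miR-223-3p was higher (0.70) and miR-150-5p lower (-0.38), with sums of 691 to 800 and 583 to 742 CPM. None of the 3 expressed smooth muscle arms of miR-143 and miR-145a and none of the 5 expressed muscle fibre miRNAs had an unadjusted p of at most 0.05. Their sums were 49530 to 65259 and 51105 to 94931 CPM for smooth muscle, and 21916 to 30894 and 20868 to 25279 CPM for muscle fibre. No defining miRNA of these lists was at 0 in all libraries. None passed the adjusted threshold, and the part of these cell types in the values of the miR-199 and miR-214 arms was not tested.

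Other miRNAs linked to fibrosis were read in the same way, with no test of the list. Of 7 expressed, 4 were higher and 3 lower in LLC mice, against 53.6% lower among all expressed miRNAs. Their median log2-fold change was 0.12, against -0.02 over all expressed miRNAs, and they had a summed CPM of 3945 to 4762 and 4065 to 4828. miR-29b-3p, of the family known to repress collagens, was the only one under an unadjusted p of 0.05, with a log2-fold change of 0.73 (adjusted p = 0.0812 in edgeR). The most abundant of the 7, miR-21a-5p, known to rise in fibrotic tissue, had 1923 ± 148 CPM (SD, n = 4) in control mice and 2207 ± 191 CPM (SD, n = 5) in LLC mice, a log2-fold change of 0.20 (adjusted p = 0.326 in edgeR).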

How the data were processed

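Small RNA libraries (TruSeq kit, single-end reads) of 4 control and 5 LLC TA muscles were used. The authors aligned reads with Bowtie against miRBase mature miRNAs, kept all best alignments, and deposited whole counts per mature miRNA without normalization. Reads that match 2 miRNAs equally well are therefore counted for each, and arms that differ by few bases may exchange reads. Counts were fitted with edgeR 4.0.16 in R 4.3.3 (TMM, quasi-likelihood F test, LLC minus control, Benjamini-Hochberg) over the 304 expressed miRNAs (over 32 counts in 1 library or more). Standard errors are the fold change over the root of F. Exact permutation tests on log2 CPM (prior count 2) and log2 arm ratios (0.5 added to each arm) were two-sided over all 126 splits, with a smallest p of 0.00794. Alternatives were RLE factors, library totals, totals that omit the 5 miRNAs of highest abundance, DESeq2 1.42.0, limma 3.58.1 (voom), other filters, identical rows taken once, a replicate block, other prior counts and leaving out mice. Named were all members, the 5 most similar profiles and, from the lists, those with an unadjusted p of at most 0.05 or the highest level. Members and lists were chosen with earlier results of these data known. The edgeR test and the permutation test of arm ratios were checked on simulated data, with recovery required only for changes larger than those of the members. Within groups, library pairs differed by a chi-square of at least 124 per degree of freedom, so none was a copy. The p-values measure the spread between these mice. Gene positions are from GENCODE M21 and sequences from RefSeq, both on GRCm38. Figures were drawn with matplotlib 3.10.9.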

Additional observations from a re-analysis of the deposited data

Results flagged for a closer look

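Of 32 sets of values per group checked with Dixon's test, 5 had a sample far from the others, where chance gives about 1 in 20. L5 was one such sample for miR-199a-3p, with 3122 CPM against 1573 to 1865 CPM in the other 4 LLC mice. The same mouse stood apart in the summed CPM of the 5 members (3344, next 2142) and in the miR-199 3p counts per 5p count (16.6, next 10.1), which are not independent of the first. L5 also had the lowest TMM factor, 0.762, and its part in these values was not tested. Before TMM scaling L5 still had the highest miR-199a-3p level, at 2377 CPM against 1561 to 2290 CPM. For miR-199a-5p, L2 with 197 CPM was above the other LLC mice (154 to 166 CPM). For miR-199b-5p, C1 with 58.2 CPM was above the other control mice (43.4 to 45.8 CPM).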

How the results depend on the processing

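None of the 5 members was called under any of the 22 alternatives, and the 4 lower arms kept their sign in the 20 that give a fold change. Their log2-fold changes ranged from -0.48 to -0.22 for miR-199a-5p, -0.65 to -0.32 for miR-199b-5p, -0.41 to -0.17 for miR-214-3p and -0.60 to -0.31 for miR-214-5p, and the smallest adjusted p was 0.103. The sign of miR-199a-3p reversed with library totals alone (-0.11 in edgeR, and -0.11 in log2 CPM with an exact permutation p of 0.381), with the replicate block (-0.13), and with L1 and L5 left out (-0.12). Library totals alone also moved the median of all expressed miRNAs from -0.02 to -0.17, and weakened the exact permutation test of miR-199a-5p (-0.48, p = 0.0635).

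When single mice were left out, the log2-fold change of miR-199a-3p ranged from -0.13 to 0.18. In the exact permutation tests the differences in log2 CPM then ranged from -0.13 to 0.14 for miR-199a-3p, -0.38 to -0.25 for miR-199a-5p (p = 0.0179 to 0.0714), -0.60 to -0.37 for miR-199b-5p (p = 0.0286 to 0.0893), -0.34 to -0.20 for miR-214-3p (p = 0.0286 to 0.161) and -0.52 to -0.32 for miR-214-5p (p = 0.0357 to 0.143). The unadjusted exact p was over 0.05 for miR-199a-5p without C1, C2, L1, L3, L5 or L6 and for miR-199b-5p without C1, and under 0.05 for miR-214-3p without L2 and for miR-214-5p without C4. A left-out mouse leaves fewer splits, so this p moves in coarser steps. For miR-199a-5p it was 0.0571 without L1, L3, L5 or L6, each with a difference of -0.30. The number of miRNAs called among all expressed, 0 in the edgeR test, was 0 to 8 with a mouse left out (8 without L3, 1 without L1). It was 7 with DESeq2, 22 at an unadjusted p, and 1 without L1 and L5. At an unadjusted p and no fold minimum it was 50. Without a filter on low counts, 22 were called among 932 miRNAs tested, which include those below the expression threshold. Of the 5 most similar miRNAs, 2 to 5 stayed with a mouse left out (2 without L1, 3 without C2, L5 or L6) and 3 with the group means removed. The cause of these shifts was not tested. Same-numbered mice are different animals, and their deviations correlated by -0.25 to -0.09, so the replicate number pairs no mice, and the block on C1 to C3 and L1 to L3 gave adjusted p-values of 0.706 to 0.769 for the members. Depth limits miR-214-5p most, with 44 counts in its lowest library.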
